A study of Mus musculus with 4 samples.

Results

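Zg16, Agr2, Spdef, Fcgbp, Tff3 and Muc13 are 6 genes of goblet cells and intestinal mucus. They were followed through every probe set that the platform table annotates to them alone, which gave 10 probe sets of the 22626 that are not controls, and 6 of the 12393 genes with a probe set. All 6 were among the 8036 genes called measured, those whose scaled signal averaged at least 100 over the arrays. The signals came from intestinal mucosa of male mice at 10 weeks of age, after 2 weeks on a diet. The 4 groups combined an inbred strain with a diet, namely A/J high-fat, A/J low-fat, C57BL/6J high-fat and C57BL/6J low-fat. A/J is known as a strain that resists obesity when fed much fat, and C57BL/6J as one that develops it. Each group held 6 mice, and RNA was pooled from 2 of them that had an average body weight, and hybridised to 1 Affymetrix Mouse Expression Array 430A. A group was therefore 1 pool and 1 array, with no replicate, and its value carries no spread between mice. No label or file names the segment of intestine.

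Goblet cells are the secretory cells of the intestinal epithelium that make the mucus gel. Their gel-forming mucin is folded and crosslinked in the endoplasmic reticulum, glycosylated in the Golgi apparatus and released from granules together with smaller proteins, while membrane-bound mucins form the surface layer on the epithelial cells. Mucus keeps bacteria and food particles off the epithelium, and the number of goblet cells and the make-up of mucus are known to differ between gut segments and to respond to microbes and diet.

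The deposited signals had a median of 43.9 to 57.1 per array, and the arrays were brought to a common trimmed mean of 500 by factors of 2.72 to 3.41. A floor of 100 replaced every lower scaled signal, and 58.6 to 60.3% of probe sets lay at or above it. Of 10 other goblet cell markers with a probe set, 7 were at or above the floor on both A/J arrays and 8 on both C57BL/6J arrays. Retnlb and St6galnac1 were under the floor on all 4 arrays, and Ern2 was under it on both A/J arrays. Clca1, Spink4, Guca2a, Klf4, Atoh1, Creb3l1 and Tpsg1 were at or above it on every array. Muc2, the gel-forming mucin that defines the goblet cell, was not analysed here. All 13 absorptive enterocyte markers with a probe set were above the floor on every array, so the RNA held much besides goblet cells. In such RNA, fewer cells of a type and less RNA per cell cannot be told apart.

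Each gene is represented by its probe set with the highest mean signal. Across the 4 signals of that probe set, the highest over the lowest was 1.26-fold for Zg16, 1.29-fold for Fcgbp, 1.30-fold for Spdef, 1.32-fold for Tff3, 1.42-fold for Muc13 and 1.70-fold for Agr2. Agr2 was thus the 1 gene of the 6 with a span of at least 1.5-fold, a span that 39.7% of the 8036 measured genes had. The median span was 1.31-fold over the 6 genes and 1.42-fold over all measured genes. At these probe sets none of the 6 reached 1.5-fold in any comparison of a pair of pools (0 of 6 in each), where 9.69% of genes did so with high-fat against low-fat diet in A/J, 9.76% with diet in C57BL/6J, 15.3% between A/J and C57BL/6J on the high-fat diet and 20.1% between them on the low-fat diet. A second probe set of Muc13 did so once, as given below. The deposited signals behind these values were 35.6 to 75.9% of the highest signal on the array for Zg16, Fcgbp, Tff3 and Muc13, 5.67 to 12.3% for Agr2 and 0.609 to 0.668% for Spdef. The dimmer probe set of Muc13 spanned 1.96-fold where the brighter one spanned 1.42-fold. For Zg16 the order was the other way, with 1.09-fold at its dimmest probe set and 1.26-fold at its brightest. Spdef, the dimmest of the 6 genes, spanned 1.30-fold. The part of brightness in the narrow spans was not tested. With 1 array a group these are descriptions of the pools, and neighbouring levels in the orders below cannot be separated by a replicate spread.

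**Figure D1:**
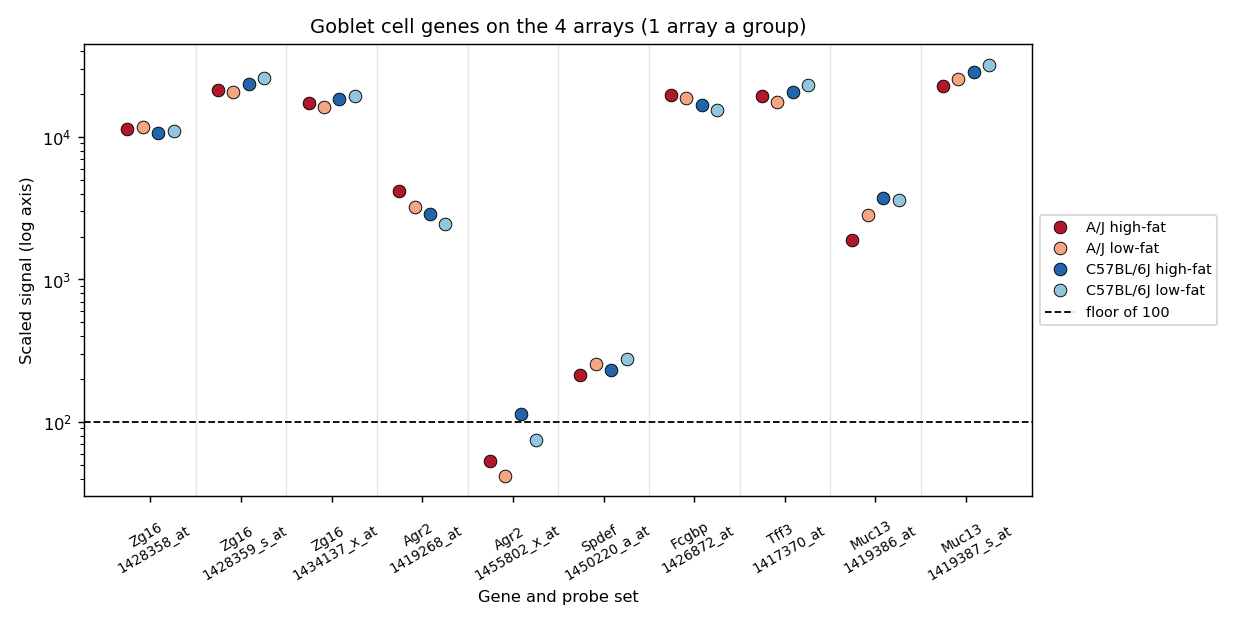
Scaled signal (log axis) of each of the 10 probe sets of the 6 goblet cell genes, with 1 point per array and the floor of 100 as a dashed line. The 4 points of a probe set lie close together for Zg16, Fcgbp, Tff3 and Spdef. They lie farther apart for Agr2 (1419268_at) and for the second probe set of Muc13 (1419386_at), and Agr2 (1455802_x_at) has 3 points under the floor. Heights of different probe sets are not comparable, since each binds its own probes.

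Spdef is the ETS-family transcription factor that drives maturation of goblet and Paneth cells. Its single probe set read 212 in A/J high-fat and 253 in A/J low-fat mucosa, and 231 in C57BL/6J high-fat and 276 in C57BL/6J low-fat mucosa. Both high-fat pools lay below both low-fat pools, and the log2 ratio of high-fat over low-fat was nearly the same in the strains, at -0.25 in A/J and -0.26 in C57BL/6J mice. The pools of the strains overlapped, with log2 ratios of A/J over C57BL/6J of -0.12 on either diet. Of the 6 genes, Spdef was the nearest to the floor.

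Agr2 is a protein disulfide isomerase of the endoplasmic reticulum that is required for production of the gel-forming mucin. Its signal at 1419268_at was 4167 in A/J high-fat, 3212 in A/J low-fat, 2859 in C57BL/6J high-fat and 2449 in C57BL/6J low-fat mucosa. Both A/J pools lay above both C57BL/6J pools, and within each strain the high-fat pool lay above the low-fat pool. A/J was 1.46-fold above C57BL/6J on the high-fat diet and 1.31-fold above it on the low-fat diet. The high-fat pool was 1.30-fold above the low-fat pool in A/J and 1.17-fold above it in C57BL/6J. The other probe set of Agr2, 1455802_x_at, carried almost no signal, with 53.3 in A/J high-fat, 41.9 in A/J low-fat, 114 in C57BL/6J high-fat and 74.4 in C57BL/6J low-fat mucosa. It was under the floor on 3 of the 4 arrays, and therefore measures neither the strain nor the diet difference.

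Zg16 is a small lectin-like protein of secretory granules that binds the cell wall of Gram-positive bacteria and aggregates them in mucus. At 1428359_s_at, the brightest of its 3 probe sets, it read 21447 in A/J high-fat, 20652 in A/J low-fat, 23640 in C57BL/6J high-fat and 25996 in C57BL/6J low-fat mucosa. Both A/J pools lay below both C57BL/6J pools, by a log2 ratio of -0.14 on the high-fat diet and -0.33 on the low-fat diet. The probe set 1434137_x_at had the same order of strains, with 17209 and 16225 in A/J high-fat and A/J low-fat against 18388 and 19500 (19499.6 before rounding) in C57BL/6J high-fat and C57BL/6J low-fat mucosa. The order was the other way round at 1428358_at, which read 11442 and 11737 in A/J high-fat and A/J low-fat against 10746 and 11029.7 in C57BL/6J high-fat and C57BL/6J low-fat mucosa. The 3 probe sets thus disagreed on which strain was higher, and their spans were 1.09 to 1.26-fold.

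Fcgbp is a large secreted protein with von Willebrand factor type D domains that is bound within the mucus gel. It read 19749 in A/J high-fat, 18746 in A/J low-fat, 16809 in C57BL/6J high-fat and 15353 in C57BL/6J low-fat mucosa. Both A/J pools lay above both C57BL/6J pools, by log2 ratios of 0.23 on the high-fat and 0.29 on the low-fat diet. The high-fat pool lay above the low-fat pool in each strain, by 0.07 to 0.13 on the log2 scale. This order of the 4 pools is the one Agr2 had, at a smaller size.

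Tff3 is the trefoil peptide that goblet cells secrete with mucin and that aids repair of the epithelial surface. It read 19323 in A/J high-fat, 17577 in A/J low-fat, 20787 in C57BL/6J high-fat and 23244 in C57BL/6J low-fat mucosa. Both A/J pools lay below both C57BL/6J pools. The log2 ratio of high-fat over low-fat was 0.14 for A/J and -0.16 for C57BL/6J, and the pools of the strains were 1.08-fold apart on the high-fat diet and 1.32-fold apart on the low-fat diet. The difference of its diet ratios, 0.30 on the log2 scale, was the widest of the 6 genes at the probe set that represents each gene, beside a median size of 0.28 over all measured genes.

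Muc13 is a membrane-bound mucin of the apical surface, made by absorptive cells as well as by goblet cells. At 1419387_s_at it read 22706 in A/J high-fat, 25619 in A/J low-fat, 28702 in C57BL/6J high-fat and 32228 in C57BL/6J low-fat mucosa. Both A/J pools lay below both C57BL/6J pools, by a log2 ratio of -0.34 on the high-fat and -0.33 on the low-fat diet. In each strain the high-fat pool lay below the low-fat pool, at a log2 ratio of -0.17 in both. The other probe set, 1419386_at, read 1906 in A/J high-fat, 2840.4 in A/J low-fat, 3729 in C57BL/6J high-fat and 3623 in C57BL/6J low-fat mucosa. There A/J was 1.96-fold below C57BL/6J on the high-fat diet and 1.27-fold below it on the low-fat diet. Its diet ratio on the log2 scale was -0.58 in A/J, a 1.49-fold difference, and 0.04 in C57BL/6J. The probe sets of Muc13 thus shared the order of the strains and differed in size and in the diet ratio. In a fit of every probe set with limma, the strain effect at 1419386_at was -0.66 ± 0.22 on the log2 scale (SE), with an adjusted p of 0.123.

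Whether the genes differed by strain over both diets was tested with limma across all 8036 genes, as an additive effect of strain beside diet. Its error comes from how far each gene's diet ratios differ between strains, moderated over genes, with 1 residual degree of freedom. The p-values therefore do not measure the spread between mice or between pools of 1 group. At these probe sets Agr2 had the widest strain effect of the 6, with A/J above C57BL/6J by 0.47 ± 0.20 on the log2 scale (SE, 95% interval 0.04 to 0.89), a limma p of 0.034 and an adjusted p of 0.187. Muc13 was the wider when a gene's probe sets were averaged, at -0.50 against 0.19 for Agr2, and with shared probe sets left out, at -0.66 against 0.47. The Fcgbp effect was also above zero, at 0.26 ± 0.20 (adjusted p = 0.498 in limma). Muc13 was at -0.33 ± 0.19 (adjusted p = 0.356 in limma), Tff3 at -0.25 ± 0.20 (adjusted p = 0.523), Zg16 at -0.24 ± 0.20 (adjusted p = 0.554) and Spdef at -0.12 ± 0.19 (adjusted p = 0.782).

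By limma, 0 of the 6 genes passed an adjusted p of 0.05 for strain, and 1 of 6, Agr2, had an unadjusted p under 0.05. Over all genes, 3.83% passed as higher in A/J, 3.68% passed as lower in A/J, and 21.5% had an unadjusted p under 0.05, so 1 of 6 is near the share of all genes. Of the genes that passed, 51.0% were higher in A/J, and 81.2% were with no scaling between arrays. The median strain effect was -0.18 over the 6 genes and 0.04 over all genes, and the median size without its sign was 0.26 and 0.22. At the probe sets that represent the genes, all 6 of the 95% intervals lay within 2-fold either way. The interval of Muc13 reached lowest, at -0.76 to 0.09 on the log2 scale, and that of Agr2 reached highest. This does not cover the second probe set of Muc13, 1419386_at, where the strain effect was -0.66 ± 0.22 (SE).

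For diet, tested in the same limma fit as high-fat over low-fat, 0 of the 6 genes passed and 0 of 6 had an unadjusted p under 0.05. Over all genes, 0.423% passed as higher on the high-fat diet, 0.187% passed as lower, and 9.35% had an unadjusted p under 0.05. Agr2 stood farthest from zero, at 0.30 on the log2 scale (95% interval -0.13 to 0.72, adjusted p = 0.741 in limma), followed by Spdef at -0.26 (95% interval -0.68 to 0.17, adjusted p = 0.786 in limma). Without scaling between arrays, Spdef at -0.35 and Muc13 at -0.27 were farther from zero than Agr2 at 0.20. The diet effect was -0.17 for Muc13, 0.10 for Fcgbp, -0.04 for Zg16 and -0.01 for Tff3, with adjusted p of 0.885 to 0.993 in limma. The median diet effect was -0.03 over the 6 genes and -0.004 over all genes, and the median size without its sign was 0.14 and 0.16. All 6 of the intervals lay within 2-fold either way. Like the p-values, the intervals leave out the spread between mice and pools, so they are no bound on the effect of diet across mice.

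**Figure D2:**
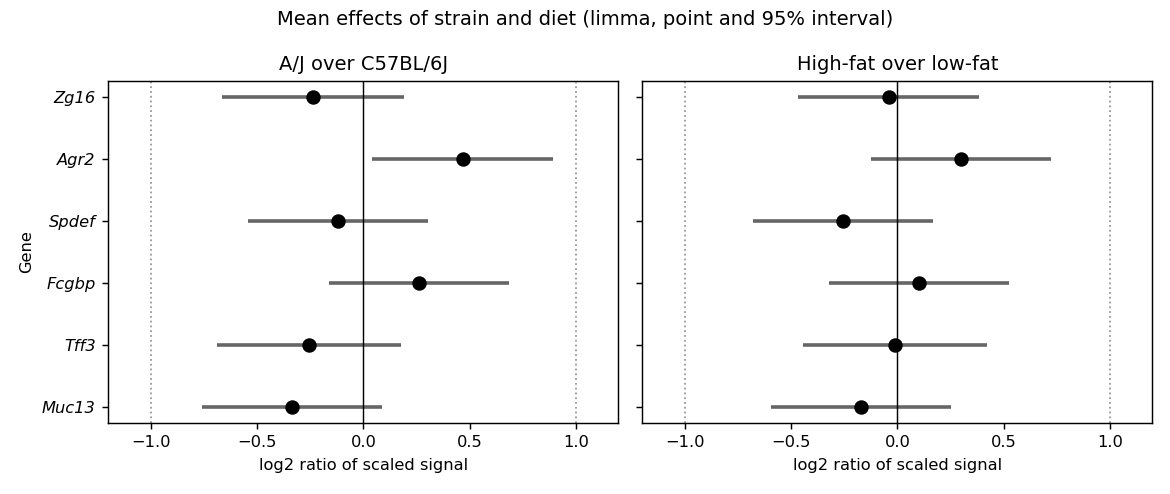
Strain effect (left, A/J over C57BL/6J) and diet effect (right, high-fat over low-fat) of the 6 goblet cell genes, as log2 ratio of scaled signal, with the limma estimate as a point and its 95% interval as a bar. Dotted lines mark 2-fold either way. Every bar crosses zero except that of Agr2 for strain, which runs from 0.04 to 0.89, and none reaches a dotted line.

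The diet ratios of the strains were close for these genes. The log2 ratio in A/J minus that in C57BL/6J was 0.30 for Tff3, 0.19 for Zg16, 0.15 for Agr2, -0.06 for Fcgbp, 0.01 for Spdef and -0.01 for Muc13. The median size was 0.10, beside 0.28 over all measured genes. This difference has no test with 1 array a group, and the second probe set of Muc13 had a difference of -0.62.

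Of 16 other products of goblet cells listed, 11 were measured, and 1 was higher, 2 were lower and 8 did not pass by strain at an adjusted p of 0.05 in limma, where 3.83% of all genes were higher and 3.68% lower. By diet 0 of 11 passed. The strain calls of this and the next 5 lists, 13 genes in all, were each lost with a floor of 200 and with no filter on mean signal. No gene at all passed by strain in those settings, so they do not set these 13 calls apart. Guca2a, the precursor of the gut hormone guanylin, read 6236 in A/J high-fat and 9279 in A/J low-fat against 2055 in C57BL/6J high-fat and 3509 in C57BL/6J low-fat mucosa. It was 2.83-fold higher in A/J over both diets (SE 0.20 on the log2 scale, limma adjusted p = 0.000476), with both A/J pools above both C57BL/6J pools. Spink4, a small secreted protein with the fold of a protease inhibitor, read 4752 in A/J high-fat and 3713 in A/J low-fat against 7007 in C57BL/6J high-fat and 8488 in C57BL/6J low-fat mucosa. It was lower in A/J by 1.84-fold (limma log2 -0.88 ± 0.21, adjusted p = 0.028). That call was also lost with quantile normalization (limma adjusted p = 0.073), no scaling (0.107), a floor of 50 (0.0839), the mean of probe sets (0.061), every probe set tested (0.0515) and 1 factor only (0.119). The chemokine Ccl9 was lower in A/J as well, at 114 in A/J high-fat and 131 in A/J low-fat against 339.7 in C57BL/6J high-fat and 256 in C57BL/6J low-fat mucosa (limma log2 -1.27, adjusted p = 0.00291), while its other probe set was at -0.41 with an adjusted p of 0.283. Clca1, the secreted protease that is among the most abundant mucus proteins, read 7848, 8279, 8367 and 7267 in A/J high-fat, A/J low-fat, C57BL/6J high-fat and C57BL/6J low-fat mucosa, a strain effect of 0.05 (adjusted p = 0.92 in limma). The list's median strain effect was -0.06, beside 0.04 over all genes.

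Among the other mucins, 5 of 14 were measured, and 0 were higher and 1 was lower by strain (3.83% and 3.68% over all genes). Muc4, a membrane-bound mucin, was under the floor in both A/J pools, and read 169.5 in C57BL/6J high-fat and 191 in C57BL/6J low-fat mucosa. A/J was therefore at least 1.69-fold lower on the high-fat diet and at least 1.91-fold lower on the low-fat diet. The limma adjusted p for strain was 0.0206, on A/J signals set to the floor, and 0.0546 without scaling between arrays. Muc3, the other abundant membrane mucin of the list, read 5843 in A/J high-fat, 8620.5 in A/J low-fat, 7651 in C57BL/6J high-fat and 8691 in C57BL/6J low-fat mucosa, with a strain effect of -0.20 (adjusted p = 0.637) and a diet effect of -0.37 (adjusted p = 0.652) in limma. Muc1, Muc5ac, Muc5b and Muc15 averaged under the floor.

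Of 20 listed regulators of the secretory lineage, 16 were measured. By strain 0 were higher and 1 was lower (3.83% and 3.68% over all genes). Elf3, an epithelial ETS factor like Spdef, read 2221 in A/J high-fat and 2575 in A/J low-fat against 5164 in C57BL/6J high-fat and 5527 in C57BL/6J low-fat mucosa. It was lower in A/J by 2.23-fold (limma log2 -1.16, adjusted p = 0.00301). Atoh1, the factor that commits cells to the secretory fate, read 467, 506, 488 and 633 in A/J high-fat, A/J low-fat, C57BL/6J high-fat and C57BL/6J low-fat mucosa (strain log2 -0.19, adjusted p = 0.64 in limma). Klf4, a factor of goblet cell differentiation, had a strain effect of -0.14 (adjusted p = 0.766) and Creb3l1 one of 0.50 (adjusted p = 0.238) in limma, so neither passed.

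The enzymes that glycosylate mucins held the widest strain difference of the lists. Of 33 listed, 24 were measured, with 1 higher, 2 lower and 21 not passing by strain (3.83% higher and 3.68% lower over all genes). St3gal4, a sialyltransferase, read 145 in A/J high-fat and 151 in A/J low-fat against 15286 in C57BL/6J high-fat and 17767 in C57BL/6J low-fat mucosa. It was lower in A/J by 111-fold (limma log2 -6.80, adjusted p = 1.45e-09). St6galnac2, which adds sialic acid to the first sugar of a mucin chain, was lower in A/J by 2.61-fold (adjusted p = 0.000921 in limma), and St3gal6 was higher by 2.04-fold (adjusted p = 0.0103 in limma). When a gene's probe sets were averaged, the limma adjusted p was 0.0562 for St6galnac2 and 0.0505 for St3gal6, and at its other probe set St3gal6 was at 0.63 with an adjusted p of 0.111. The sialyltransferase St6galnac1 and the fucosyltransferase Fut2 averaged under the floor.

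Agr2 acts beside the folding machinery of the endoplasmic reticulum, of which 26 of 29 listed genes were measured. By strain 0 were higher and 2 were lower (3.83% and 3.68% over all genes). Ern2, the stress sensor found in goblet cells, was under the floor in both A/J pools and read 190 (189.63 before rounding) in C57BL/6J high-fat and 202 in C57BL/6J low-fat mucosa. A/J was at least 1.90-fold lower on the high-fat diet and at least 2.02-fold lower on the low-fat diet. The limma adjusted p for strain was 0.00945, on A/J signals set to the floor, and with a floor of 200 the fitted effect was -0.006. Creld2, a stress-induced disulfide isomerase, read 702 in A/J high-fat and 757 in A/J low-fat against 1414 in C57BL/6J high-fat and 1149.5 in C57BL/6J low-fat mucosa (limma log2 -0.81, adjusted p = 0.0323). The limma adjusted p of Creld2 was 0.0589 with quantile normalization and 0.102 without scaling. The transcription factor Xbp1 and the chaperone Hspa5 had strain effects of -0.26 and -0.36, with adjusted p of 0.507 and 0.318 in limma. The list's median strain effect was -0.23, where Agr2 itself was at 0.47.

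Of 12 listed genes for cleavage and crosslinking of mucus and for ion transport, 10 were measured. By strain 2 were higher, 1 was lower and 7 did not pass (3.83% higher and 3.68% lower over all genes). Tgm2, a transglutaminase, was lower in A/J by 2.47-fold (limma log2 -1.31, adjusted p = 0.00132). Dnase1, a secreted nuclease, was 2.12-fold higher (adjusted p = 0.00725 in limma). Mep1a, the alpha subunit of the protease meprin and an absorptive enterocyte marker as well, read 3231 in A/J high-fat and 1853 in A/J low-fat against 1628 in C57BL/6J high-fat and 1169 in C57BL/6J low-fat mucosa, 1.77-fold higher in A/J (adjusted p = 0.0267 in limma, and 0.0718 with a floor of 50). Mep1b, the beta subunit, which is the one known to cleave the gel-forming mucin and release mucus, read 15085 in A/J high-fat, 14718 in A/J low-fat, 15266 in C57BL/6J high-fat and 15188 in C57BL/6J low-fat mucosa (strain log2 -0.03, adjusted p = 0.951 in limma). By diet, 0 of these 10 genes passed in limma, and so did 0 of the measured genes of each of the other lists above. The lists and the members were chosen with earlier results of these data known.

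**Figure D3:**
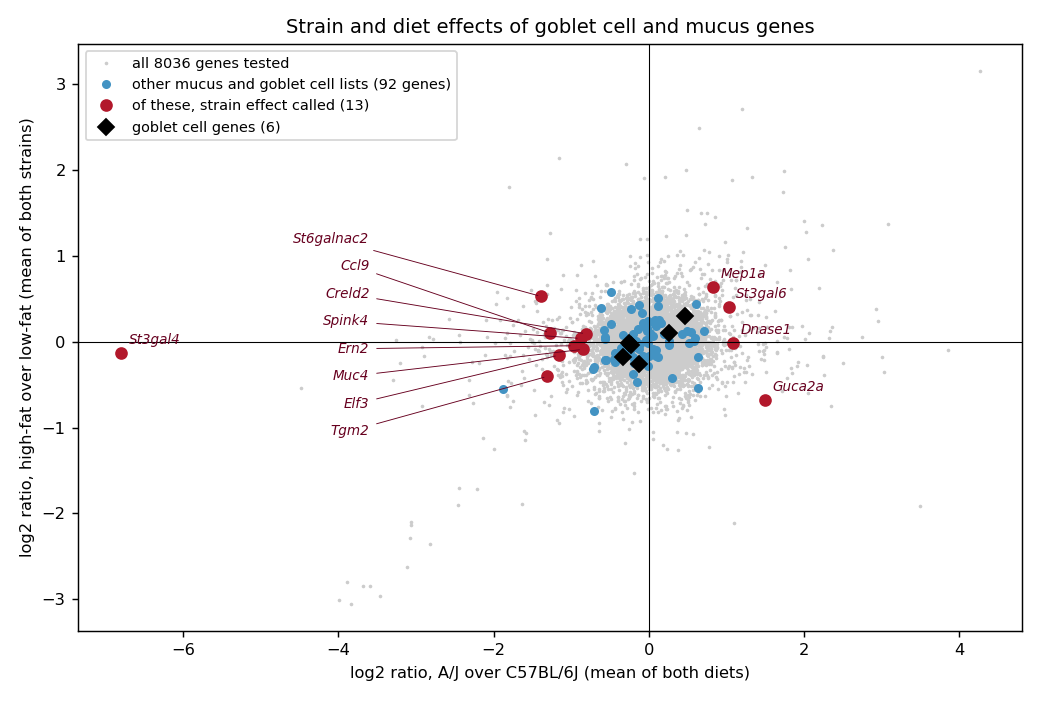
Strain effect (x axis, log2 of A/J over C57BL/6J) against diet effect (y axis, log2 of high-fat over low-fat) from limma, for all 8036 measured genes (grey), the 92 measured genes of the other mucus and goblet cell lists (blue), the 13 of these that passed by strain (red, named) and the 6 goblet cell genes (black diamonds, where Zg16 and Tff3 overlie each other). The diamonds lie within 0.47 of zero on both axes, and on the strain axis the red points lie between St3gal4 at -6.80 and Guca2a on the far right.

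The pools differed in RNA of other cell types. Markers of the exocrine pancreas, which lies against the upper intestine, summed to a scaled signal of 21416 in A/J high-fat and 133826 in A/J low-fat, and 202068 in C57BL/6J high-fat and 136767 in C57BL/6J low-fat mucosa. With the high-fat diet, 13 of 15 were at least 1.5-fold lower in A/J (median log2 -5.46). In C57BL/6J 12 of 15 were at least 1.5-fold higher (median log2 0.66). Of all measured genes, 9.69% changed by that much either way in A/J and 9.76% in C57BL/6J. Of the sum in A/J high-fat mucosa, Reg1 made up 18635, while Cpa1, Sycn and others lay under the floor there. The diet ratios of the 6 goblet cell genes ran from -0.25 to 0.38 in A/J and from -0.26 to 0.22 in C57BL/6J, and the part of pancreatic RNA in them was not tested.

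T cell and intraepithelial lymphocyte markers summed to 4961, 3878, 7781 and 13947 in A/J high-fat, A/J low-fat, C57BL/6J high-fat and C57BL/6J low-fat mucosa. Of these sums, Gzma alone made up 907, 810, 3352 and 5190. On the high-fat diet, 1 of the 10 measured was at least 1.5-fold higher in A/J than in C57BL/6J and 1 was lower (median log2 0.09). On the low-fat diet 0 were higher in A/J and 7 were lower (median log2 -0.82). Between the strains, 15.3% of all measured genes differed by that much either way on high-fat and 20.1% on low-fat diet. With the high-fat diet, 8 of the 10 measured were at least 1.5-fold lower in C57BL/6J (median log2 -0.82). In A/J 0 of 10 were lower by that much and 2 were higher (median log2 0.26). Over all measured genes, 9.76% changed by that much either way in C57BL/6J and 9.69% in A/J. Paneth cell markers summed to 18111, 19808, 20911 and 24304 in the same order of groups. Most of this was Lyz1, at 11670, 13812.5, 13344 and 15542.5 (strain log2 -0.18, limma adjusted p = 0.659). By strain, 1 of the 6 measured Paneth cell markers was higher in A/J and 0 were lower (3.83% and 3.68% over all genes). That marker, Mptx1, read 975, 1176, 697 and 476 (strain log2 0.895, limma adjusted p = 0.0333), against the order of the sums. Enteroendocrine markers summed to 13474, 14651, 12047 and 14705 (14704.5 before rounding). Absorptive enterocyte markers summed to between 211221 and 217071 on the 4 arrays. The 10 goblet cell markers with a probe set, besides the 6 genes, summed to 22202, 24845, 20919 and 23581. These sums hold markers with opposite strain effects. Of the 8 measured, 1 (Guca2a) was higher in A/J in limma, 2 (Spink4 and Ern2) were lower and 5 did not pass (3.83% higher and 3.68% lower over all genes). The large intestine markers were mixed. Car1, Hoxd13 and Retnlb were under the floor on every array, Best2 on 3 of 4, and Aqp8 and Saa1 on 2 of 4. Slc26a3 and B4galnt2 were above it on all. B4galnt2 read 8544, 9421, 8581 and 8780 in A/J high-fat, A/J low-fat, C57BL/6J high-fat and C57BL/6J low-fat mucosa. Car4, a carbonic anhydrase on that list, read 1539 in A/J high-fat and 837 in A/J low-fat against 833 in C57BL/6J high-fat and 375 in C57BL/6J low-fat mucosa. It was 2.03-fold higher in A/J (limma adjusted p = 0.00742) and 2.02-fold higher on the high-fat diet (limma adjusted p = 0.0421). In the limma fit of every probe set, its other probe set, 1448949_at, had a diet effect of 1.035 (log2) that did not pass (adjusted p = 0.135). The strain effect there was 0.976 (adjusted p = 0.029). With 1 factor only, or with no filter on mean signal, no gene passed as higher on the high-fat diet. Car4 itself was not followed through the other settings. The part of these cell types in the signals of the 6 genes was not tested.

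**Figure D4:**
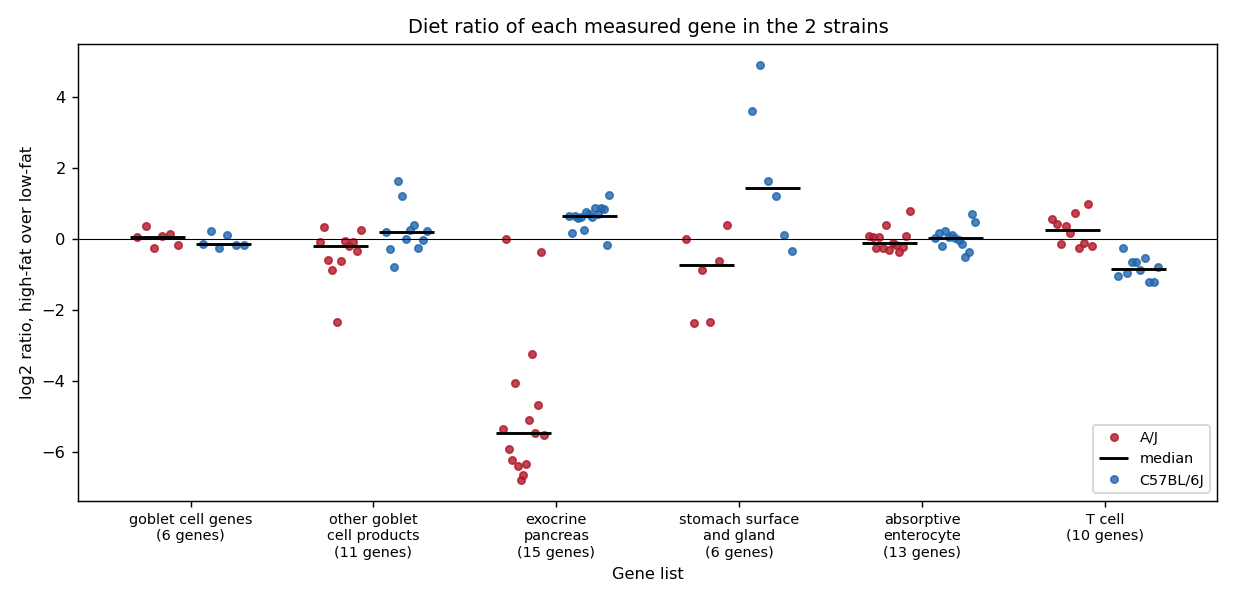
Log2 ratio of high-fat over low-fat signal for each measured gene (points) and the median (bars) of 6 lists, in A/J (red, left of each pair) and C57BL/6J (blue, right). The 6 goblet cell genes lie between -0.26 and 0.38 in both strains. Most pancreas genes lie below -3 in A/J and above zero in C57BL/6J, and ratios with a signal under the floor are bounds.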

How the data were processed

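The deposited values are an intensity per probe set, a linear signal that the authors computed in Microarray Suite 5.0 at default parameters from the difference of matched and mismatched probes, per the labels' protocols. The 64 control probe sets were left out. Each array was scaled so that its mean, trimmed by 2% at each end, was 500. Signals under 100 were set to 100, and log2 was taken. Of 22626 probe sets, 20380 have 1 gene in the platform annotation and were used. Each gene was represented by its probe set with the highest mean, and 8036 genes averaged at least 100.

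Strain and diet were fitted as additive terms with limma 3.58.1 in R 4.3.3, with Benjamini-Hochberg adjustment over the 8036 genes. The code was tested on simulated data. Python 3.11.15 with numpy 2.4.6, pandas 2.3.3 and matplotlib 3.10.9 did the rest. Ratios in which 1 signal was set to the floor are bounds.

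Named genes are the 6 members, and from each other list those passing limma and those among the 4 widest strain and 2 widest diet effects, a few of which were named. Clca1, Atoh1, Klf4, Xbp1, Hspa5, Mep1b, Car4 and single genes quoted under the floor or from the marker lists were named for their known roles, with their values seen. Gzma and Lyz1 were named for their part in a sum, and Mptx1 for passing limma. The members and lists were chosen with earlier results of these data known. Sequences and coordinates were not used here, and the files name no genome build.

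Alternatives were quantile normalization, no scaling, floors of 50 and 200, a pseudocount of 50, the mean of a gene's probe sets, leaving out probe sets shared between transcripts, every probe set, no filter, an intensity trend, 1 factor only, and leaving out each array in a fit with 1 factor, since 3 arrays leave both factors no residual.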

Additional observations from a re-analysis of the deposited data

Results flagged for a closer look

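The 6 goblet cell genes gave no result of this kind. Among the other listed genes, 3 of 92 measured ones (3.26%) had diet ratios of at least 1.5-fold that pointed opposite ways in A/J and C57BL/6J, as 59 of 8036 genes (0.734%) did. With 1 array a group, the differences were not tested.

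Tff1, a trefoil peptide best known from the stomach, read 1089.8 in A/J high-fat and 1971 in A/J low-fat against 3965 in C57BL/6J high-fat and 1276 in C57BL/6J low-fat mucosa. Its log2 diet ratio was -0.85 for A/J and 1.64 for C57BL/6J, a difference of -2.49. Tff2, another gastric trefoil peptide, was under the floor in A/J high-fat mucosa and read 501 in A/J low-fat, 1259.5 in C57BL/6J high-fat and 541 in C57BL/6J low-fat mucosa. Its ratio was -2.32 in A/J, a bound, and 1.22 in C57BL/6J, and the difference was -3.54. Stomach markers, a list that holds both genes, summed to 3542, 5096, 10457 and 3063 in A/J high-fat, A/J low-fat, C57BL/6J high-fat and C57BL/6J low-fat mucosa. Gkn2, a secreted gastric protein on that list, read 517 in A/J low-fat and 3001 in C57BL/6J high-fat mucosa and was under the floor in the other pools, while Muc5ac, Pgc and Cblif were under it in all. Ctse, also on that list, went the other way. It read 2097 in A/J high-fat, 1606 in A/J low-fat, 775 in C57BL/6J high-fat and 983 in C57BL/6J low-fat mucosa. Its diet ratio was 0.385 for A/J and -0.344 for C57BL/6J, while its other probe set had -0.852 and 0.44. Atp4b, a further gene of the list, was highest in A/J low-fat mucosa, at 199. Its ratio was -0.606 for A/J and 0.131, a bound, for C57BL/6J. The part of gastric RNA in the Tff1 and Tff2 values was not tested. Tff3, their relative among the 6 genes, had a difference of 0.30.

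Galnt7, which adds sugars to partly glycosylated mucin, read 1265 in A/J high-fat and 785 in A/J low-fat against 892 in C57BL/6J high-fat and 1512 in C57BL/6J low-fat mucosa. Its ratio was 0.69 for A/J and -0.76 for C57BL/6J, a difference of 1.45. Its other probe sets had ratios of the same signs and smaller sizes, at 0.14 and 0.05 in A/J and -0.42 and -0.14 in C57BL/6J.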

How the results depend on the processing

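Each count below gives strain higher, strain lower, diet higher and diet lower, which were 308, 296, 34 and 15 as reported. They were 193, 208, 14 and 5 with quantile normalization, and 620, 144, 13 and 7 with no scaling. A floor of 50 gave 168, 174, 8 and 4, a floor of 200 gave 0 of each, and a pseudocount of 50 gave 402, 379, 73 and 30. The mean of probe sets gave 201, 185, 7 and 2, leaving out shared probe sets 231, 216, 15 and 7, and testing every probe set 329, 333, 17 and 5. With no filter the counts were 0 of each, with an intensity trend 442, 412, 83 and 40, and with 1 factor only 68, 76, 0 and 0. Leaving out each array, in fits that also held 1 factor only because 3 arrays leave no residual for both, gave 0 to 0 for strain, 0 to 1 for diet higher and 0 to 14 for diet lower. With a floor of 200, 1254 genes had no residual, and with no filter 3580, against 0 as reported. No member passed for either factor under any of these settings, and the lowest adjusted p in limma with all arrays was 0.061 for strain, for Agr2 without scaling, and 0.433 for diet.

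Directions of effects that passed no test turned in places. The Zg16 strain effect was 0.09 without shared probe sets. Its diet effect was 0.01 with quantile normalization and -0.21 to 0.12 leaving out arrays. The Spdef strain effect was 0.11 without scaling, where the median of all genes was 0.26, and -0.25 to 0.009 leaving out arrays. Leaving out arrays gave diet effects of -0.041 to 0.247 for Fcgbp and -0.21 to 0.19 for Tff3. The Muc4 strain effect was 0.00 with a floor of 200. Of the 13 list genes that passed by strain, 0 passed with a floor of 200 or no filter, where no gene at all did. In the other fits of all arrays, 3 passed with 1 factor only, and 9 to 13 otherwise. The diet effect of Agr2 was 0.028 without A/J high-fat and 0.571 without C57BL/6J high-fat, in fits of diet alone. No paired analysis was possible because each group had 1 array. The number of arrays limits all precision, and Spdef, at 212 to 276, was the gene of the 6 nearest to the floor.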
